A study of Homo sapiens with 6 samples.

Results

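The SOXC genes SOX11, SOX4 and SOX12 and the SOXE genes SOX8, SOX9 and SOX10 encode 6 transcription factors, and their transcript levels were compared between HEK293 cells carrying a myocilin vector and cells carrying a control vector. All probe sets of the Affymetrix HG-U133 Plus 2.0 array that the platform annotation gives to exactly 1 of these genes were taken, 16 of the 41751 probe sets in the deposited table, and the 6 genes are among 18338 genes measured. SOX11 was selected on its measured rise, since its difference between these same arrays ranked 2 among all genes, after MYOC, and the others were taken as its paralogues. The differences of the 6 genes are therefore given as a description, without a test.

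HEK293 is an established cell line of human embryonic kidney. Both groups were stable Tet-On lines, in which doxycycline switches on the gene in the vector, and both were kept under hygromycin B and G418. The control line (3 arrays) carried the control vector and the myocilin line (3 arrays) the myocilin vector, and the protocols given for both state 0.2 or 1 µg/ml doxycycline for 48 h, without the dose behind each array. A remark naming doxycycline accompanies the myocilin arrays alone, so exposure to the drug and the vector cannot be told apart. Each vector is represented by 1 line, and an effect of myocilin cannot be told apart from other differences between the lines. Separate cultures are not stated for the arrays of a line, so p-values below measure only the spread between these arrays, which may be technical. MYOC, the induced gene, read -6.71, -8.32 and -8.29 in the control line and 0.21, 0.20 and 0.24 in the myocilin line, in the direction of the labels.

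SOX proteins bind the minor groove of DNA through an HMG box, a domain related to that of the sex-determining factor SRY, and bend the double helix. SOXC factors are known for their part in neural progenitors and young neurons and in the survival of embryonic mesenchyme, and they act mainly as activators through a region at the C-terminus. SOXE factors are known for cartilage, testis, neural crest, glia and melanocytes, and SOX8 and SOX9 are also expressed in developing organs that include the kidney. Kinship is strongest within each group, so paralogues of 1 group can stand in for each other in some tissues.

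Values are the authors' log-scale values, read as log2, with a median of 0 on every array. They appear to be centred for each probe set on a reference that the sources used here do not give. Values of different genes therefore cannot be ranked as levels, and low signal and background cannot be told apart. Below, a difference is the mean of the myocilin arrays minus the mean of the control arrays, and a gene's value is the mean of its probe sets. A gene was called when limma, fitted to all genes, gave a Benjamini-Hochberg adjusted p under 0.05. This was the case for 15.6% of all genes, 8.28% higher and 7.35% lower in the myocilin line. Of the 6 SOX genes, 2 were called, SOX11 and SOX8, both higher, and the groups did not overlap for 4 of them, against 34.9% of all genes. A test that uses each gene's own spread in each line, without moderation over genes, called 44 genes in all, and of the 6 SOX genes and the 5 gene lists described below it called SOX11 alone. In total RNA from whole cultures, more cells expressing a gene and more transcript per cell cannot be told apart.

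SOX11, a factor of neural progenitors and immature neurons on chromosome 2, read -0.53, -0.35 and -0.47 in the control line and 4.61, 4.72 and 4.45 in the myocilin line. The 3 myocilin arrays lay far above the 3 control arrays, and the arrays of a line were close to each other. The means were -0.45 ± 0.09 and 4.59 ± 0.13 (SD, n = 3 each), a log2 difference of 5.04 with a standard error of 0.08, or 32.9-fold at face value. Probe set 204913_s_at read -0.22, -0.28 and -0.28 in the control line and 4.05, 4.30 and 3.92 in the myocilin line, a difference of 4.35. Probe set 204914_s_at read -0.79, 0 and -0.26 against 5.01, 4.96 and 4.87, a difference of 5.29. Probe set 204915_s_at read -0.57, -0.75 and -0.87 against 4.77, 4.90 and 4.55, a difference of 5.47. The probe sets thus gave 20.4-fold, 39.2-fold and 44.4-fold, and in each of them myocilin array 3 was the lowest of its line. All of these probe sets end in _s_at, a suffix for probes that can match several transcripts, so none is free of that limit. Under quantile normalisation, which forces all arrays to 1 distribution, the SOX11 difference was 3.84.

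**Figure D1:**
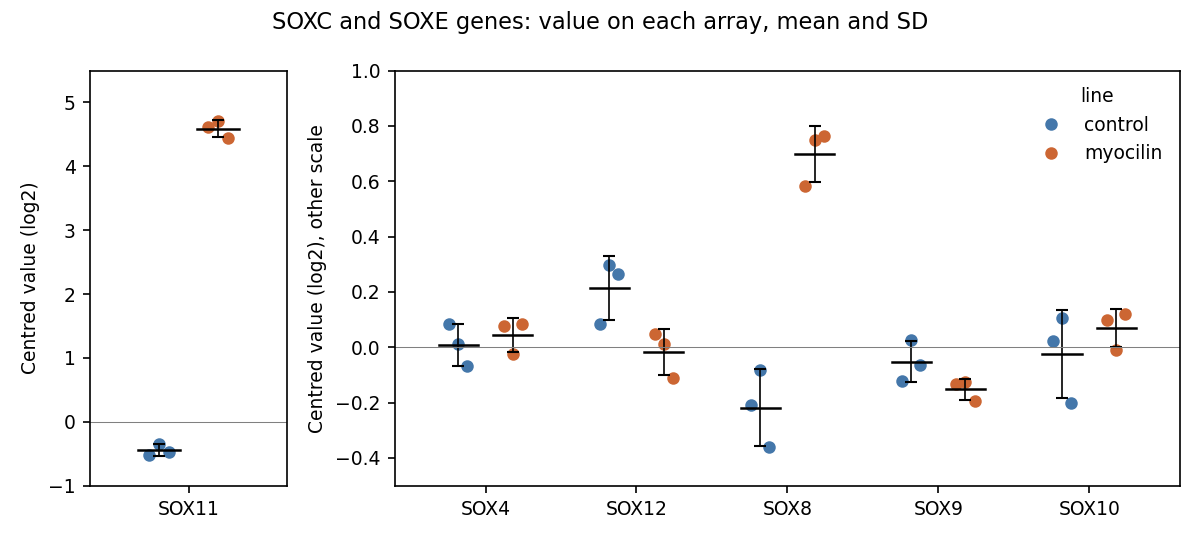
Centred log2 values of the 6 SOX genes on each array, as points, with the mean (horizontal line) and SD (bar) of the 3 control and the 3 myocilin arrays. SOX11 has its own axis, with means of -0.45 and 4.59, while on the enlarged axis SOX8 separates, at -0.22 and 0.70, and SOX4 and SOX10 overlap.

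The other SOXC genes did not show a difference of this kind. SOX4, a broadly expressed factor of progenitors that also serves in T and B cell development, read 0.08, 0.01 and -0.07 in the control line and 0.08, -0.02 and 0.08 in the myocilin line. The lines overlapped, with means of 0.01 ± 0.08 and 0.05 ± 0.06 (SD, n = 3 each) and a difference of 0.04 with a standard error of 0.06. Only 21.4% of genes had a smaller absolute difference. The 6 SOX4 probe sets gave differences from -0.14 to 0.42, and none was called, against 11% of all probe sets. Probe set 201416_at, at the upper end, varied most within a line, from -0.41 to 0.34 in the control line and from -0.01 to 0.45 in the myocilin line. Probe set 201417_at, at the lower end, was the only SOX4 probe set without overlap, with 0.04, 0.23 and 0.17 in the control line and -0.02, 0.01 and 0.02 in the myocilin line. The median of the SOX4 probe sets, in place of their mean, gave -0.05, so the sign of this small difference depends on the summary.

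SOX12, the weakest activator of the SOXC group, read 0.08, 0.30 and 0.26 in the control line and 0.05, 0.01 and -0.11 in the myocilin line. The myocilin line was the lower one, with a difference of -0.23 and a standard error of 0.07, and the groups did not overlap, but the gene was not called. Its probe sets disagreed in size. Probe set 228358_at read 0.34, 0.46 and 0.48 against -0.06, 0.07 and 0, a difference of -0.42, and it was called lower. Probe set 204432_at read -0.17, 0.13 and 0.05 against 0.16, -0.05 and -0.22, and overlapped. SOX12 as a gene was called lower without control array 1, with a difference of -0.30.

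Promoter sequences were found for SOX4 and SOX12 alone among the 6 genes, in a RefSeq table of GRCh38.p14 that spans 250 bases before to 50 after each gene's start. They are shown because they belong to the SOXC genes that were close to or slightly below the control line while SOX11 was far above it, and capitals mark each CCAAT on either strand (ATTGG on the reverse). The SOX4 promoter lies on chr6:21593501-21593800 and the SOX12 promoter on chr20:325302-325601, both on the plus strand.
SOX4: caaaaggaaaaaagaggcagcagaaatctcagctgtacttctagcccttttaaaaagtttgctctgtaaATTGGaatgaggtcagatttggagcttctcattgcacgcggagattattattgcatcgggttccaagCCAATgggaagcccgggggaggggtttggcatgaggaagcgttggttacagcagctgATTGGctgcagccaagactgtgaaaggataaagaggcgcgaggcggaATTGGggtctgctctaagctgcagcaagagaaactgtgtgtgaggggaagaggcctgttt
SOX12: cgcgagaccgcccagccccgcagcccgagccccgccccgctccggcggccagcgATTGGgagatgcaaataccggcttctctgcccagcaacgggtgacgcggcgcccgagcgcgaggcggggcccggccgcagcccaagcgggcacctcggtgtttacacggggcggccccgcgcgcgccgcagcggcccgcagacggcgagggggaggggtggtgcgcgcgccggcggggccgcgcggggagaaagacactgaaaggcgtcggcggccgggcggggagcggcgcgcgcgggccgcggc
The SOX4 window has a GC content of 49.3% and 8 CpG, and the SOX12 window 80.3% and 54 CpG, beside a median GC content of 63.3% over the promoters of 14399 measured genes. SOX4 holds 4 CCAAT matches and SOX12 holds 1, and 36.1% of all these promoters hold at least 1.

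Of the SOXE genes, SOX8 was higher in the myocilin line and the others differed little. SOX8, a factor of testis, neural crest and oligodendrocyte development on chromosome 16, read -0.21, -0.08 and -0.36 in the control line and 0.58, 0.75 and 0.76 in the myocilin line. The lines were well apart, with means of -0.22 ± 0.14 and 0.70 ± 0.10 (SD, n = 3 each). The difference was 0.92 with a standard error of 0.08, or 1.89-fold, and ranked 70 among all genes by size. It rests on 1 probe set, 226913_s_at, so no second probe set could be set beside it. The SOX11 difference exceeded that of SOX8 by 4.12 log2 units, and both were in the same direction.

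SOX9, the factor of cartilage and testis, read -0.12, 0.03 and -0.06 in the control line and -0.13, -0.13 and -0.19 in the myocilin line. The difference was -0.10 with a standard error of 0.06. As a gene its groups just failed to overlap, while each of its 2 probe sets overlapped and gave -0.09 and -0.11. A smaller absolute difference was found for 50.2% of all genes. SOX9-AS1, an RNA transcribed opposite SOX9 and named here after its value was seen, differed by 0.14 and did not pass the threshold (limma adjusted p = 0.234). Its probe sets disagreed in sign, 1564466_at at -0.07 with overlap and 230419_at at 0.35 without overlap, and neither was called.

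SOX10, the factor of Schwann cells, oligodendrocytes and melanocytes, read 0.02, 0.11 and -0.20 in the control line and 0.10, -0.01 and 0.12 in the myocilin line. The groups overlapped, and the difference of 0.09 had a standard error of 0.08. Probe set 209842_at gave 0.16 and probe set 209843_s_at gave 0.03, both with overlap between the lines.

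**Figure D2:**
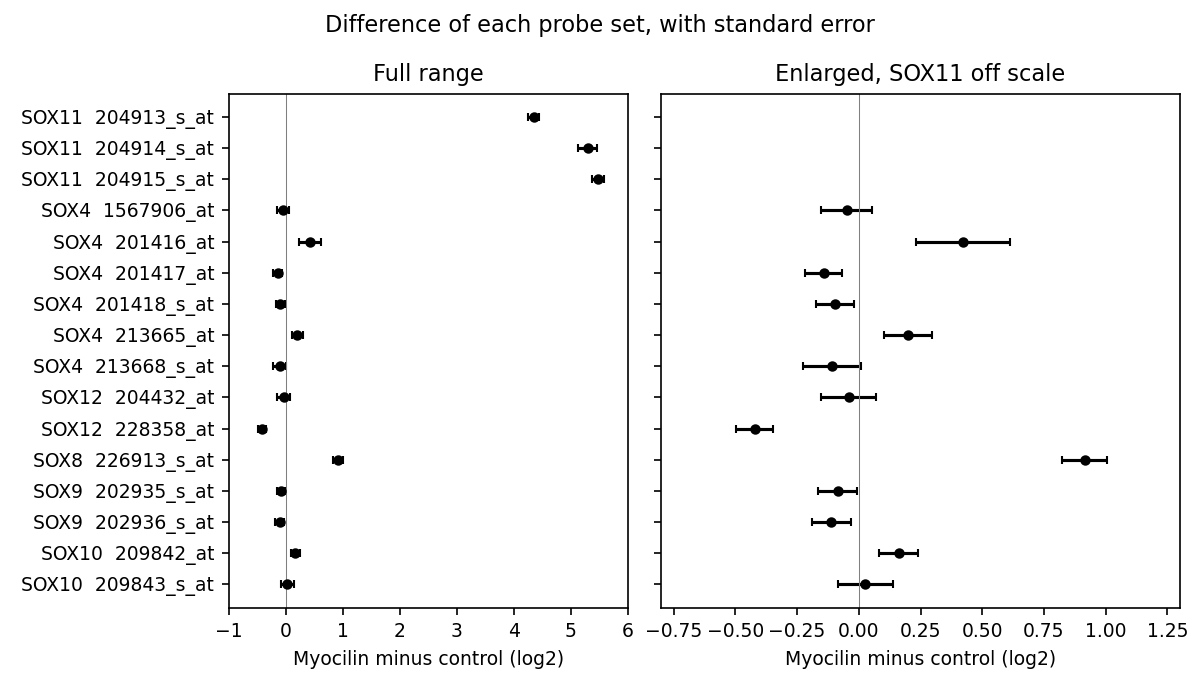
Myocilin minus control difference (log2) of each of the 16 SOXC and SOXE probe sets, as points with the standard error of the fit as bars, on the full range and enlarged. The 3 SOX11 probe sets lie between 4.35 and 5.47, the SOX8 probe set lies at 0.92, and the SOX12 probe sets lie at -0.42 and -0.04.

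By probe set, 4 of the 16 were called higher, against 5.46% of all probe sets, and 1 was called lower, against 5.56%. The groups did not overlap for 6 of the 16, against 30.4% of all probe sets. SOX11 supplied 3 of the 4 called higher. These shares use the contrast by which SOX11 was chosen, and nothing is read from them.

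The rest of the SOX family was taken as a list of 13 genes, all measured. Of these 0 rose in the limma fit, with 0 higher at an unadjusted p under 0.05 and 0 by the test without moderation, while 2 fell and 11 did not pass the threshold, and the median difference was -0.01, beside 0.02 over all genes. Both genes that fell, SOX2 and SOX3, belong to the SOXB1 group, whose factors keep neural progenitors and pluripotent cells undifferentiated. SOX1, the remaining SOXB1 gene, differed by -0.03 and did not pass. By this count 15.4% of the list was called, close to the 15.6% of all genes.

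SOX3 read 0.64, 0.65 and 0.74 in the control line and 0.05, 0.02 and 0.06 in the myocilin line. It fell by 0.63 with a standard error of 0.06 (limma adjusted p = 0.000205), with every myocilin array below every control array. Its probe sets differed in size: 214633_at gave -1.07, from 1.07, 1.13 and 0.98 to 0, 0.04 and -0.08, and 1553802_a_at gave -0.20 with overlap. The SOX3 promoter is shown because the gene had the largest fall of the listed SOX genes. It lies on chrX:140505020-140505319 on the minus strand (GRCh38.p14), and capitals again mark CCAAT on either strand.
SOX3: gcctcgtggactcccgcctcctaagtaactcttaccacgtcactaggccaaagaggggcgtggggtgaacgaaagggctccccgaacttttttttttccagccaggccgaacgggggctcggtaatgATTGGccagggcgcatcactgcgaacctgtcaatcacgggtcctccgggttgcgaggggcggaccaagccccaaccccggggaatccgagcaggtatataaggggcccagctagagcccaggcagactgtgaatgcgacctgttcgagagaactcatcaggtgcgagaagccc
This window holds 1 CCAAT match, as does that of SOX2. Of 10 SOX promoters in the table, 6 hold at least 1, against 36.1% of the promoters of 14399 measured genes. They include those of SOX4, SOX12, SOX21 and SOX30, genes that were not called.

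SOX2 read 0.05, 0.05 and 0.04 in the control line and -0.22, -0.18 and -0.19 in the myocilin line. It fell by 0.24 with a standard error of 0.05 (limma adjusted p = 0.0145), and 3 of its 4 probe sets were called lower. The call was lost without myocilin array 1. SOX2-OT, a long RNA whose gene spans SOX2, picked with its value known, also fell, by 0.20 (limma adjusted p = 0.045), although its only probe set was not called in the fit over probe sets. Among the genes that did not pass, SOX6 of the SOXD group differed by -0.16, and 2 of its 8 probe sets were called lower, 227498_at at -0.54 and 228214_at at -0.35. Its group mates SOX5 and SOX13 differed by 0.09 and -0.01. The SOXF genes SOX7, SOX17 and SOX18, known from endothelium and endoderm, differed by 0.11, 0.02 and -0.15. SOX14 and SOX21 of the SOXB2 group differed by -0.05 and 0.13, SOX15 by 0.02 and SOX30 by 0.003, none past the threshold.

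**Figure D3:**
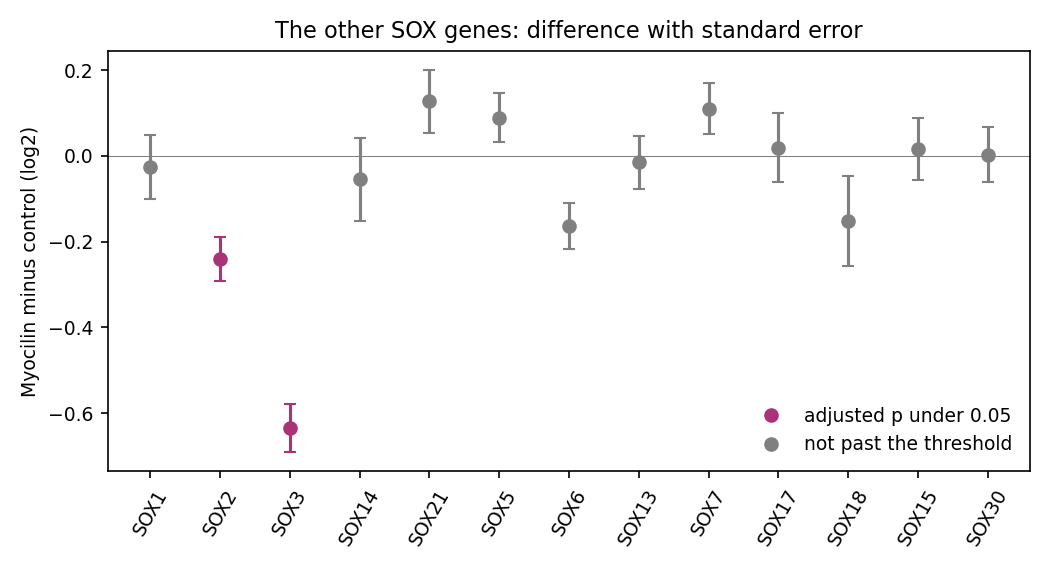
Myocilin minus control difference (log2) of the 13 other SOX genes, as points with the standard error as bars, purple where the limma adjusted p was under 0.05. SOX3 at -0.63 and SOX2 at -0.24 are the genes past the threshold, and the others lie between -0.16 and 0.13.

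Whether a member shared its difference with the genes beside it was described for the 10 measured genes on either side, or all those up to the chromosome end. Around SOX11, 3 of 20 neighbours rose and 1 fell (20% called, against 15.6% of all genes), with a median difference of 0.02. With the median of the neighbours subtracted on each array, which need not equal subtraction of their median difference, the SOX11 difference was 5.03. The closest measured genes, ALLC before SOX11 and SILC1 after it, both chosen for their place, differed by 0.04 and 0.01 and did not pass. PXDN, the gene of peroxidasin, an enzyme that cross-links the collagen of basement membranes, lies 9 places before SOX11. It read -2.29, -2.28 and -2.08 in the control line and -0.01, -0.07 and -0.06 in the myocilin line, a rise of 2.17 with a standard error of 0.07 (limma adjusted p = 5.94e-07). RNF144A, a ubiquitin ligase gene 7 places after SOX11, rose by 0.45, with probe sets at 0.05 and 0.85. ADI1, an enzyme of methionine salvage 5 places before SOX11, fell by 0.46. COLEC11, 2 places before SOX11 and picked with its value known, rose by 0.31 (limma adjusted p = 0.0214). Genes between PXDN and SOX11 thus went both ways or did not pass.

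SOX8 lies on chromosome 16, where 15 of its 20 neighbours had a positive difference, and 2 rose, METRN and CHTF18. Their median was 0.06, beside 0.02 over all genes. Positive differences were as common around SOX11 (15 of 20) and more common around SOX10 (17 of 20). METRN, a secreted factor of glial differentiation, rose by 0.40 with a standard error of 0.06. Its 3 probe sets ranged from 0.0004 to 0.61, and 2 were called. CHTF18, part of a clamp loader in DNA replication, rose by 0.40 with a standard error of 0.08 on 1 probe set. The share called, 10% of the neighbours, was below the 15.6% of all genes. With the neighbours subtracted on each array in the same way, the SOX8 difference was 0.85, close to the 0.92 without this subtraction. LMF1 and SSTR5-AS1, on either side of SOX8 and chosen for their place, differed by 0.19 and -0.01 and did not pass.

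SOX10 had the neighbours most often called, 7 of 20 (35%, against 15.6% of all genes), all of them higher, with a median difference of 0.18. They included MAFF, a small MAF factor, at 0.53, NOL12, a nucleolar protein gene, at 0.35 and MICALL1, a gene of endosomal recycling, at 0.34. SOX10 itself was not called, and with the neighbours subtracted on each array its difference was -0.08. Around SOX4, 3 of 20 neighbours rose and 1 fell, also 20%. E2F3, a cell cycle factor, rose by 0.36 and NUP153, a nuclear pore gene, by 0.26, while ID4, an inhibitor of bHLH factors, fell by 0.36. The median around SOX4 was 0.05. SOX12 lies near the end of chromosome 20, with 17 neighbours, of which 1 rose and 1 fell (11.8%). TRIB3, a stress-induced pseudokinase, fell by 0.80, and ANGPT4, an angiopoietin gene, rose by 0.37 although its groups overlapped. Of the 20 neighbours of SOX9, 2 fell (10%) and the others did not pass. Those that fell were the potassium channel gene KCNJ2 by 1.26 and the p38 activating kinase gene MAP2K6 by 0.62. SOX9 and its closest falling neighbour therefore differed by very unequal amounts.

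**Figure D4:**
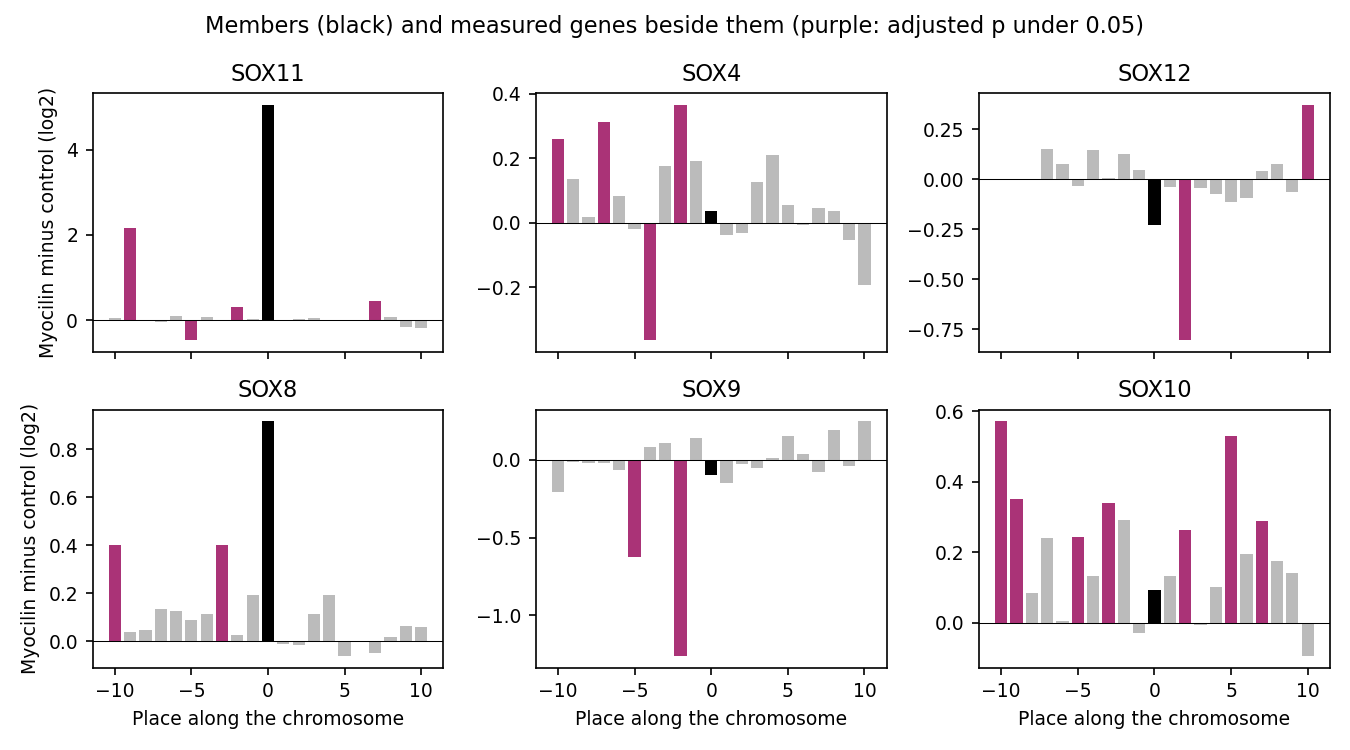
Myocilin minus control difference (log2) of each member (black bar, place 0) and of the measured genes beside it. These lie up to 10 places before or after it along its chromosome and are purple where the limma adjusted p was under 0.05. Bars start at 0, and each panel has its own vertical scale. SOX11 at 5.04 and SOX8 at 0.92 stand above their neighbours, and around SOX10 the 7 called neighbours are all higher.

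A list of 24 genes reported as targets of SOXC factors was set beside the SOX11 difference. Of 23 measured, 2 rose, 1 fell and 20 did not pass, 13% called against 15.6% of all genes, with a median difference of 0.01 beside 0.02 over all genes. MEX3A, an RNA-binding protein gene, read -0.04, -0.05 and -0.02 in the control line and 0.25, 0.12 and 0.19 in the myocilin line, a rise of 0.22 with a standard error of 0.06 (limma adjusted p = 0.0292). CCND1, the G1 cyclin, rose by 0.25 with a standard error of 0.07. MAP2, a microtubule-associated protein of dendrites, read 0.35, 0.51 and 0.45 against -0.03, 0.06 and -0.01 and fell by 0.43 with a standard error of 0.06 (limma adjusted p = 0.00224). For each of these genes 1 probe set was called, and the range over probe sets was 0.09 to 0.35, 0.16 to 0.35 and -0.62 to -0.23 in that order. Chosen after their values were seen, TUBB3, the neuronal tubulin, DCX, a microtubule protein of migrating neurons, and TEAD2, a partner of YAP, differed by 0.22, 0.03 and 0.02, none past the threshold. The groups did not overlap for 8 of the 23 measured genes, against 34.9% of all genes. TUBB3 was among these 8 (limma adjusted p = 0.0776), while DCX and TEAD2 overlapped. The number of calls in this list was 1 when control array 1, control array 2 or myocilin array 3 was left out.

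Among 25 measured of 30 genes reported as targets of SOXE factors, 3 rose, 1 fell and 21 did not pass, 16% called against 15.6% of all genes, with a median difference of -0.003. ERBB3, a neuregulin receptor of glial precursors, read -0.18, -0.24 and -0.04 in the control line and 0.31, 0.19 and 0.35 in the myocilin line, a rise of 0.44 with a standard error of 0.07. Its 5 probe sets ranged from 0.04 to 0.94, and 2 were called. OLIG2, a bHLH factor of oligodendrocytes and motor neurons, rose by 0.36 with a standard error of 0.07, and FGF9, a growth factor of testis and lung, by 0.32 with a standard error of 0.07. The OLIG2 probe sets gave 0.14 and 0.59 and those of FGF9 0.20 and 0.45, with 1 called for each gene. COL2A1, the cartilage collagen, fell by 0.21 with a standard error of 0.06 (limma adjusted p = 0.0388), with probe sets at -0.24 and -0.17 that were not called on their own. The number of calls was 2 without control array 1 and without myocilin array 1.

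Partners of SOX factors, such as POU and PAX proteins, and proteins that regulate them were taken as a list of 24, of which 20 were measured. Of these 3 rose, 1 fell and 16 did not pass, 20% called against 15.6% of all genes, with a median difference of 0.05. NOTCH1, the receptor, rose by 0.40 with a standard error of 0.08, and USP7, a deubiquitinase encoded on chromosome 16, by 0.34 with a standard error of 0.07. The NOTCH1 probe sets gave 0.12 and 0.69, with 1 called, and 2 of the 3 USP7 probe sets were called. ZIC1, a zinc finger factor of the neural plate border, rose by 0.25 (limma adjusted p = 0.0495), close to the threshold and with none of its 3 probe sets called. PAX6, which pairs with SOX2 on eye enhancers, read 0.14, 0.12 and 0.08 against -0.23, -0.11 and -0.12 and fell by 0.27 with a standard error of 0.06. Without myocilin array 1, 2 of these genes were called.

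Neuronal and neural progenitor genes moved in both directions. Of 25 measured among 26, 3 rose and 6 fell, 36% called against 15.6% of all genes, while the median difference was 0.03. Those that rose were NEFM, NEFH and INA, which encode intermediate filament proteins of neurons, while other filament genes of the list did not pass: NEFL at -0.05, VIM at 0.17 and NES at 0.12. INA and these 3 genes were picked with their values known. NEFM read -0.27, -0.30 and -0.15 in the control line and 1.18, 1.19 and 1.17 in the myocilin line, a rise of 1.42 with a standard error of 0.06 (limma adjusted p = 3.77e-06), but its probe sets gave 2.66 and 0.17. NEFH rose by 0.67 with a standard error of 0.06, with probe sets at 0.55 and 0.79, and INA rose by 0.35. The largest fall was that of SYT1, the calcium sensor of synaptic vesicles, by 0.61 with a standard error of 0.07. ID4 fell by 0.36, with probe sets from -0.59 to 0.02, of which 3 of 5 were called. Also picked with their values known, the remaining falls were those of NHLH2, a neuronal bHLH factor, by 0.42, DLX2, a forebrain homeobox factor, by 0.26, UCHL1, a neuronal ubiquitin hydrolase, by 0.29 and SNAP25, a synaptic fusion protein, by 0.27.

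**Figure D5:**
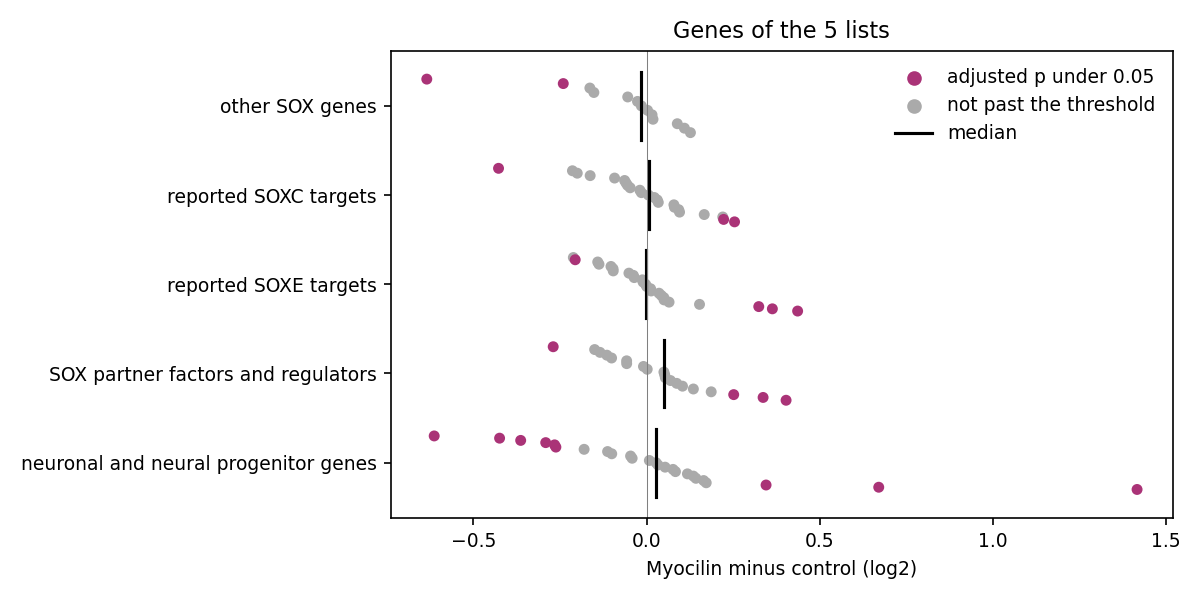
Myocilin minus control difference (log2) of each measured gene in the 5 lists, purple where the limma adjusted p was under 0.05, with the list median as a vertical line. The medians lie between -0.01 and 0.05, and the gene farthest from 0 is NEFM at 1.42.

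Marker genes of cell types in which SOX factors are known to act could not be read as present or absent, since the values are centred. Their counts stand beside 15.6% of all genes called and 8.28% called higher. For Schwann cells, oligodendrocytes and neural crest, 3 of 11 measured markers rose (27.3%) and 8 did not pass, and the list mean was -0.13 to -0.08 in the control line and 0.04 to 0.05 in the myocilin line. OLIG1 rose by 0.91 on 1 probe set, OLIG2 by 0.36 and CNP by 0.22, with CNP probe sets at 0.0002 and 0.43. TFAP2A at -0.10, MOG at -0.07 and S100B at -0.04 went the other way and did not pass. OLIG1, CNP and these genes were picked with their values known, and the median difference of the list was 0.10. Of 10 chondrocyte markers 1 fell (COL2A1, 10%) and 9 did not pass, with list means of 0.03 to 0.06 and -0.03 to 0.01. Of 5 melanocyte markers 0 were called by limma and 0 had an unadjusted p under 0.05, with list means of -0.02 to 0.03 and -0.06 to 0.06. Of 13 neuronal markers 3 rose and 2 fell (38.5%), with list means of -0.06 to -0.03 and 0.10 to 0.13. NEFM and NEFH, the largest rises, were then left out with their values known. The mean of the other 11 was -0.03 to -0.01 in the control line and -0.04 to -0.01 in the myocilin line. Those 11 hold the called falls of SYT1 (-0.61) and SNAP25 (-0.27) beside the called rise of INA (0.35). Their flat mean therefore does not show that each of them stayed unchanged. Of 9 embryonic kidney markers 2 rose (22.2%, WT1 and SALL1, picked with their values known), with list means of -0.06 to 0.02 and 0.05 to 0.11. None of the probe sets of WT1 (0.25 and 0.31) or SALL1 (0.20 and 0.24) was called on its own. These lists share genes with the target lists, and their part in the SOX differences was not tested.

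The genes most like SOX11 over the 6 arrays were sought among the 58 other called genes with at least a 2-fold difference. PTGER4, a prostaglandin E2 receptor gene, had a Pearson r of 0.998 with SOX11, H2BC12, a histone gene, 0.997, PXDN 0.997, NEFM 0.997 and H4C8, also a histone gene, 0.994. PTGER4 read -1.72, -1.81 and -1.83 in the control line and 0.28, 0.43 and 0.34 in the myocilin line. H2BC12 read -0.34, -0.43 and -0.42 against 0.74, 0.79 and 0.76, and H4C8 -0.89, -0.95 and -0.75 against 0.92, 0.79 and 0.69. These r values mostly reflect the step between the lines, which all these genes share, and 15 of the 58 genes reached 0.99.

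Promoters were searched for sequences bound by SOX proteins. The motif AACAAAG, read on both strands, was found in 3.95% of 14399 promoters of measured genes, in 3.54% of 1185 from genes that rose and in 3.5% of 1142 from genes that fell. For AACAAT, which shares the first 5 letters and so cannot match at the same place on a strand, the shares were 6.55%, 4.98% and 6.04%. Among promoters of genes that changed at least 2-fold, AACAAAG was found in 1 of 18 from genes that rose and 0 of 23 from genes that fell, and AACAAT in 0 of 18 and 3 of 23, small counts that were not tested. Of the 10 SOX promoters in the table, 0 held AACAAAG and 1, that of SOX5, held AACAAT.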

How the data were processed

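Total RNA was labelled with biotin and measured on 6 arrays, 3 per line. The deposited values are log-scale and were read as log2; the base is not stated, and neither background correction nor normalisation is given in the sources used here. Exact zeros occur on at least 1 array for 57.3% of the deposited log2 rows. Correlations over probe sets were 0.409 to 0.608 within lines and -0.244 to -0.00516 between them, and no 2 arrays were duplicates. Of 41751 probe sets, 37460 had 1 gene in the platform annotation, 1728 several and 2563 none; Entrez identifiers matched 18307 of 18338 genes to RefSeq (GRCh38.p14). The lines were compared by moderated two-sided tests (lmFit and eBayes of limma 3.58.1, R 4.3.3) over all genes and all probe sets, and simulated data were used to check the fit over genes. The number of arrays limits the precision. The members and all lists were chosen with earlier results of these data known. Named were the members, all other SOX genes, up to 4 called genes per list and 3 called neighbours per member by p, 5 genes most like SOX11, and genes marked as chosen otherwise. A planned comparison of protein sequences was not run, and 5 lists and 5 marker lists were used. Alternatives were array weights, a robust fit with a variance trend, quantile normalisation, median centring, a Welch test, the median of probe sets, omission of _x_at and _s_at probe sets, omission of each array and, added after seeing the data, subtraction, on each array, of the median of a member's neighbours.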

Additional observations from a re-analysis of the deposited data

How the results depend on the processing

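No paired analysis was possible because the labels give the lines no shared replicate numbers. The SOX11 call held in all runs that measured it, and the SOX8 call in all of them except the Welch test per gene. That test uses each gene's own variances and called SOX11 alone of the members (1 call). It called 44 genes and 26 probe sets in all, and 0 genes in each of the 5 lists. With _x_at and _s_at probe sets omitted, SOX11, SOX8 and SOX9 had no probe set left, 0 members were called, SOX4 differed by 0.11 and 1878 genes were called. The SOX11 difference was 3.84 under quantile normalisation. SOX4 read -0.050 with the median of its probe sets, and SOX10 read -0.084 with the median of its neighbours subtracted on each array, an alternative added after seeing the data. Leaving out 1 array at a time gave 1613 to 2220 called genes against 2866 (1889 without control array 2, 1613 without myocilin array 1 and 1905 without myocilin array 2) and 2281 to 3283 probe sets against 4603 (2741 and 2878 without control arrays 2 and 3, and 2281, 2693 and 2789 without myocilin arrays 1, 2 and 3). It gave 2 to 3 members called, with SOX11 at 4.98 to 5.11, SOX4 at -0.0016 to 0.07, SOX12 at -0.30 to -0.18, SOX8 at 0.84 to 0.98, SOX9 at -0.13 to -0.06 and SOX10 at 0.0048 to 0.16. Calls in the lists were 1 to 2 for the other SOX genes, 1 to 2 for SOXC targets, 2 to 3 for SOXE targets, 2 to 4 for partners and 8 to 9 for neuronal genes. Of the alternatives, 154 values stayed within the spread between replicates or 1.5 times the count and 29 moved, and the cause was not tested where none is named. Signal over background is unknown, so low genes could not be set apart.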
